A study of Mus musculus with 20 samples.

Results

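The nuclear genes for the subunits of oxidative phosphorylation were followed here across 5 genotypes of mouse bone marrow cells. They were chosen by symbol alone: protein-coding genes named Nduf with a following a, b, c, s or v and a number, Sdha to Sdhd, the Uqcr genes, the Cox4 to Cox8 genes and the Atp5 genes. A mean over the 20 libraries of 1 TPM or more was required. TPM (transcripts per 1000000) is the read count scaled for exon length and library total. Of 84 symbols that matched, 80 reached that level, among 46078 genes in the table and 14176 at or above 1 TPM. They comprise 36 genes of complex I, 4 of complex II, 8 of complex III, 15 of complex IV and 17 of complex V, the ATP synthase. The 4 left out were Cox8b with a mean of 0.113 TPM, Cox7b2 with 0.0459 TPM, Ndufa4l2 with 0.0204 TPM and Cox8c, listed at 0 in every library. The lowest genes kept were Cox7a1 with 3.48 TPM and Cox4i2 with 6.12 TPM. The symbol rule passes over a few subunits named otherwise, such as Cyc1 of complex III.

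The cells were sorted as negative for lineage markers and positive for cKit and Sca1 (LSK cells), a gate that takes in blood stem cells and the multipotent progenitors below them. The groups were Idh1R132H (Idh1LSL-R132H/+;Vav-Cre), Idh2R140Q (Idh2LSL-R140Q/+;Vav-Cre), Idh2R172K (Idh2LSL-R172K/+;Vav-Cre), Tet2KO (Tet2-/-, for which no Cre is named) and WT (+/+;Vav-Cre), with n = 4 libraries each. The mice were C57Bl/6J aged 3 to 4 months, and each library was RNA of a pool of 2 mice. Vav-Cre recombines a floxed stop cassette in blood-forming cells, so each Idh mutation is carried on 1 allele there, and the WT controls carry the Cre too. The columns taken as Idh2R140Q carry 140Q in their names beside a prefix for Idh1; the mutation, not the prefix, was used to place them.

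Oxidative phosphorylation runs in the inner mitochondrial membrane. Complexes I and II pass electrons from NADH and succinate to ubiquinone, complex III passes them to cytochrome c and complex IV to oxygen; complexes I, III and IV pump protons, and complex V uses the return flow to make ATP. Complexes I, III, IV and V hold core subunits encoded in mitochondrial DNA beside the nuclear ones, whereas complex II is wholly nuclear. Haematopoietic stem cells are known for leaning on glycolysis at rest and for raising mitochondrial respiration as they enter differentiation. Mutant Idh1 acts in the cytosol and mutant Idh2 in the mitochondrion, where each makes D-2-hydroxyglutarate, a metabolite that inhibits 2-oxoglutarate dioxygenases such as Tet2.

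Promoter letters are shown for 4 genes on which the results below turn: Ndufs8 and Ndufv1, lower in Idh2R172K; Cox6b2, higher in Tet2KO; and Uqcr11, which differed between the groups. The letters are from RefSeq on GRCm38.p6, run 5′ to 3′ on the gene's strand and end at the base before the annotated start. Capitals mark a match to 1 of the 5 motifs searched on both strands over the 300 bases from 250 before to 50 after the start.
Ndufs8, chr19:3912775-3913024, minus strand: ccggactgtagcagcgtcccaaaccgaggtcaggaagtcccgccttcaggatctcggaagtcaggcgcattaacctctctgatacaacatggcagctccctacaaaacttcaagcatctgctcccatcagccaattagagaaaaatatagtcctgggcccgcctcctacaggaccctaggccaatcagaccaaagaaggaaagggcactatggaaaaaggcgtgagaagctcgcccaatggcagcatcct
Ndufv1, chr19:4012807-4013005, minus strand: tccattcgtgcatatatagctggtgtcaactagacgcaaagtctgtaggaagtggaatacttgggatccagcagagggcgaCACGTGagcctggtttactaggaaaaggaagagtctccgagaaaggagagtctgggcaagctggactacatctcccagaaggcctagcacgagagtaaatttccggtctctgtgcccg
Cox6b2, chr7:4753095-4753344, minus strand: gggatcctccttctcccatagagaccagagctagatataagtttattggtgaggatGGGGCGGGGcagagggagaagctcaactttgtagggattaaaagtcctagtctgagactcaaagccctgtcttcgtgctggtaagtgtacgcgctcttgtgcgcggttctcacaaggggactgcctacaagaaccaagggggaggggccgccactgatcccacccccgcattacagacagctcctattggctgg
Uqcr11, chr10:80406831-80407071, minus strand: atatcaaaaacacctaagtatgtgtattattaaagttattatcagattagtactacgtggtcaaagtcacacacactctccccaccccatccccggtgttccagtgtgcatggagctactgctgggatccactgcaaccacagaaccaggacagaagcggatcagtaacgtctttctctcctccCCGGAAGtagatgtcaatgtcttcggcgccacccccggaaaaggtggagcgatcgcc
Of the 80 genes, 64 had an entry in the promoter table. The NRF1 core CGCATGCG, named for a factor known to act on respiratory genes, was in 9 of the 64, against 2.07% of all genes in the table and 4.42% of its genes at or above 1 TPM. The YY1 motif AAGATGGCG was in 7 of the 64, against 1.64% and 3.79%. The ETS motif CCGGAAG was in 16, or 25.0%, against 9.93% and 20.97%. The E-box CACGTG was in 5, against 8.09% and 11.86%, and the SP1 motif GGGGCGGGG was in 10, against 12.91% and 24.13%. Capitals show the E-box of Ndufv1, the SP1 motif of Cox6b2 and the ETS motif of Uqcr11; the ETS match of Ndufs8 and an NRF1 match of Uqcr11 lie beyond the printed letters. No motif stands in more than 1 of the 4 printed stretches, and a match describes letters, not a bound site.

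The subunit genes together took 2.09 to 3.25% of the TPM of a library. TPM is scaled by the exon length of the annotated gene. Levels of different genes compare only as far as that length fits the transcripts made, which was not tested. The union of exons can exceed a transcript, and such a gene reads too low. In complex I the 7 core subunits, among them the carriers of the flavin and the iron-sulfur clusters, spanned means over the 20 libraries of 49.3 TPM for Ndufs1 to 419.6 TPM for Ndufs8. The 29 accessory subunits, which frame and stabilise the complex, spanned 13.6 TPM for Ndufb2 and 26.5 TPM for Ndufb4 to 716 TPM for Ndufb9 and 2132 TPM for Ndufa4. Ndufa4 carries a complex I name and is now placed in complex IV; it was the most abundant of the 80. In complex II, Sdhd, a membrane anchor, had 574 TPM, Sdha, the flavoprotein, 492 TPM, Sdhb, the iron-sulfur subunit, 262 TPM and Sdhc, the other anchor, 117 TPM. In complex III the small subunits Uqcr11 with 588 TPM and Uqcr10 with 501 TPM were highest, and Uqcrc2 with 206 TPM and Uqcrq with 152 TPM lowest. In complex IV, Cox6b1 with 1138 TPM and Cox8a with 1071 TPM led. In complex V the catalytic head subunits Atp5b with 1248 TPM and Atp5a1 with 1232 TPM stood far above Atp5s, the coupling factor B, with 45.2 TPM and Atp5l with 47.2 TPM.

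The depth recovered from the TPM was 35200000 to 45000000 assigned reads per library, with a median of 39200000, rounded to the nearest 100000. Both genes of the positive gate were detected in every library. Kit averaged 590.4 ± 46.1 TPM in Idh2R172K, 330.2 ± 164 TPM in Tet2KO and 391 ± 44.4 TPM in WT, and Ly6a, which encodes Sca1, 130.3 ± 14.4, 292 ± 39.1 and 168 ± 18.6 TPM in the same groups (SD, n = 4 each). Idh2 RNA was higher in Idh2R172K, at 937 ± 62.8 TPM against 529 ± 80.6 TPM in WT (SD, n = 4 each). Tet2 had 11.2, 5.74, 12.1 and 10.6 TPM in Tet2KO, against 7.22, 6.67, 6.89 and 9.23 TPM in WT; the label does not say which exons were removed, so a value over the whole gene does not check it. A set of 5 libraries stood apart in the subunit genes. Within their own groups, the number 4 libraries of Idh1R132H, Idh2R140Q, Idh2R172K and WT had median levels of the 80 genes 0.22, 0.31, 0.28 and 0.23 lower on the log2 scale than numbers 1 to 3, while all tested genes stood 0.16 to 0.25 higher. Tet2KO replicate 2 stood 0.38 higher than the other 3 Tet2KO libraries in the subunit genes and 0.41 lower over all tested genes, and its Kit level was 97.9 TPM against 334 to 456 TPM in them. The summed TPM of 17 immediate early genes was 2406 to 2912 in those number 4 libraries, against 535 to 1111 in numbers 1 to 3 of the same groups. Among numbers 1 to 3 it was 1111, 1097 and 1094 in Idh2R172K, against 620, 609 and 535 in WT. In Tet2KO it was 1787, 1953, 1716 and 3207. All 14 tested genes of this list lay above WT in Idh2R140Q, Idh2R172K and Tet2KO, with medians of 0.52, 0.73 and 1.16. In Idh1R132H 10 did, with a median of 0.18. The part of these genes in the results was not tested. The libraries that stood apart also differed in the share of TPM held by 1 gene, Gm23935. It was 7.555 to 8.126% in the number 4 libraries of WT and the Idh groups. In numbers 1 to 3 of the same groups it was 11.01 to 13.52%. In Tet2KO it was 20.02% in replicate 2, against 9.568 to 10.92% in the other 3. Whether this share had a part in setting these libraries apart was not tested. Further values without these libraries stand beside the results below. The libraries were singled out by the levels of these same genes, so SEs and p without them are tied to that choice.

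The summed level of each complex averaged lower in Idh2R172K than in WT, with ranges that overlapped. For complex I the summed level was 9970, 9492, 9472 and 7877 TPM in Idh2R172K, against 10481, 10829, 10227 and 8584 TPM in WT. The groups overlapped only through the number 4 library of WT, which fell inside the range of Idh2R172K. This sum counts Ndufa4, now placed in complex IV. Without Ndufa4 it was 7790, 7480, 7503 and 6324 TPM in Idh2R172K, against 8140, 8389, 8005 and 6882 TPM in WT, with the same overlap. Among numbers 1 to 3, all Idh2R172K sums lay below all WT sums for complexes I, III, IV and V. Complex III had 2708, 2615, 2698 and 2250 TPM in Idh2R172K, against 2979, 3014, 3006 and 2566 TPM in WT. Complex V had 6054, 5885, 6196 and 5093 TPM in Idh2R172K, against 6634, 6788, 6819 and 5960 TPM in WT, again overlapping through the number 4 library of WT alone. Complex IV had 5208 ± 591 TPM in Idh2R172K and 5666 ± 618 TPM in WT (SD, n = 4 each). Complex II stood nearly level, with 1434 ± 98.1 TPM in Idh2R172K and 1490.2 ± 53.0 TPM in WT. In Tet2KO the sums of complexes I, III and IV were 11054 ± 1521, 3131 ± 381 and 6243 ± 1077 TPM, against 10030 ± 995, 2891 ± 218 and 5666 ± 618 TPM in WT, and each had its highest library in replicate 2. Without the libraries that stood apart these sums were 10343 ± 660.1, 2954 ± 171 and 5731 ± 409 TPM in Tet2KO, against 10512 ± 302, 2999.7 ± 18.7 and 5969 ± 153 TPM in WT (SD, n = 3 each), so Tet2KO was then the lower on average. Complexes II and V ran the other way in Tet2KO, with 1361 ± 114 TPM and 6269 ± 343 TPM, against 1490.2 ± 53.0 TPM and 6550.0 ± 401 TPM in WT (SD, n = 4 each), and were lower also without those libraries, with 1414 ± 48.3 and 6144 ± 289 TPM in Tet2KO, against 1503 ± 57.2 and 6747 ± 99.1 TPM in WT (SD, n = 3 each).

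**Figure D1:**
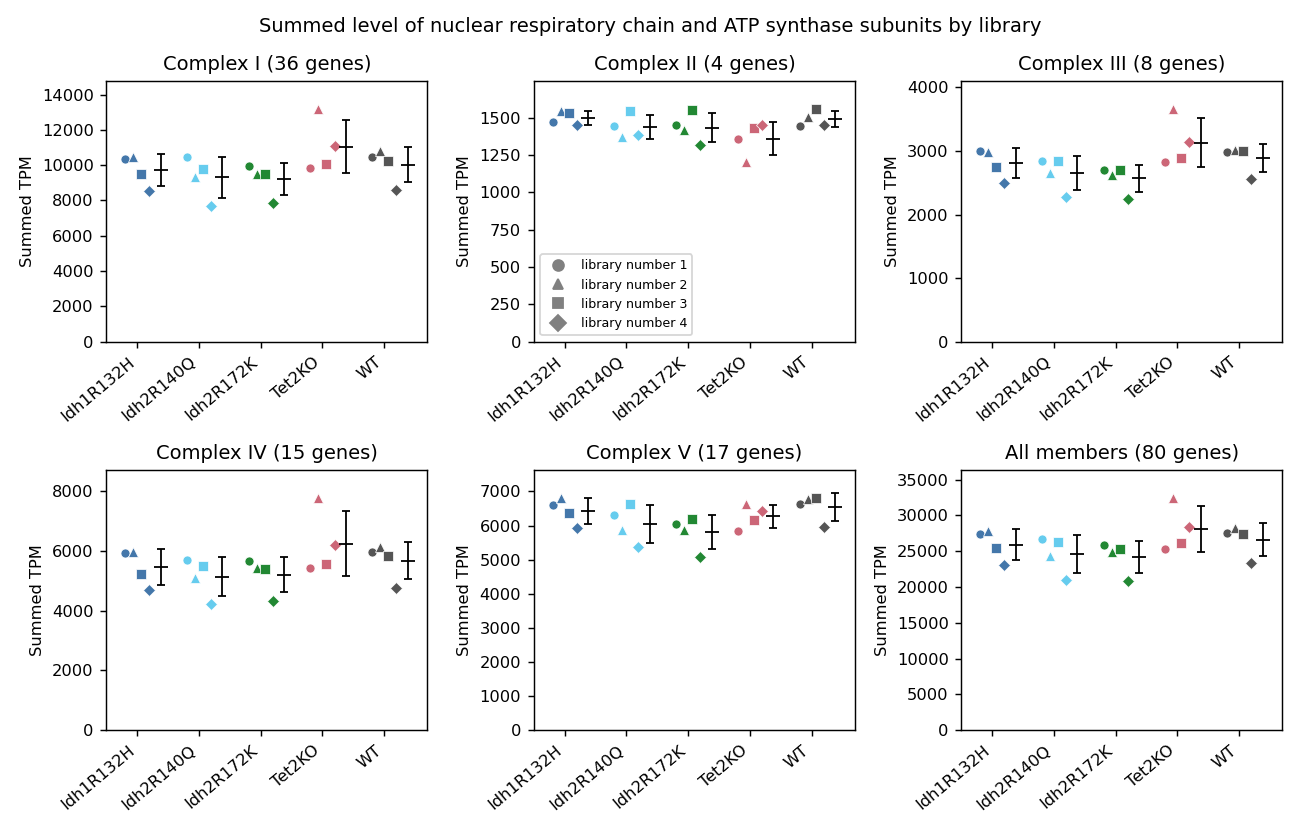
Summed TPM (y axis, linear from 0) of the subunit genes of each complex and of all 80, by genotype (x axis); each point is 1 library, its shape the library number, and the bar to the right of each group is the mean with its SD (n = 4). The number 4 library is the lowest of its group for complexes I, III, IV and V in the Idh groups and WT, and Tet2KO replicate 2 is the highest Tet2KO library there.

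In Idh2R172K, 2 core subunits of complex I were lower than in WT and 1 isoform of complex IV was higher. Most of the other subunit genes lay slightly below WT without passing the test. The test was limma on log2(TPM + 1) over all 14176 genes in 1 fit of the 5 groups, and a gene was called at an adjusted p under 0.05. Of the 80 genes 2 were called lower and 1 higher, where 7.33% of all tested genes were called lower and 8.03% higher; the share of the subunit genes called was below the background in each direction.

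Ndufs8 (chr19:3908863-3912774, minus strand), which carries iron-sulfur clusters of the peripheral arm, had 369.9, 355, 364 and 356 TPM in Idh2R172K, against 446, 432, 456 and 420.2 TPM in WT. The groups did not overlap: all 4 Idh2R172K libraries lay below all 4 WT libraries. The difference was -0.28 ± 0.07 (log2, SE) with a limma adjusted p of 0.0066. Under median-of-ratios scaling the adjusted p was 0.0836, after rescaling TPM with histone genes, mitochondrial genes and the 20 most abundant ones left out it was 0.0501, and with limma-voom on rebuilt reads it was 0.077. Ndufv1 (chr19:4007384-4012806, minus strand), which binds NADH and the flavin at the entry point of the electrons, had 179, 172.2, 191 and 166 TPM in Idh2R172K, against 228, 231, 232 and 211 TPM in WT. Again no Idh2R172K library reached the lowest WT library. The difference was -0.35 ± 0.08 with a limma adjusted p of 0.00746, and it stayed called under all 10 other settings and without any single library. The other 5 core subunits, among them Ndufs7 and Ndufv2, did not pass, and the 7 core subunits had a median difference of -0.11.

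Cox4i2 (chr2:152754173-152765037, plus strand), the isoform of subunit 4 known from lung and hypoxic cells, had 8.78, 10.0, 9.89 and 9.89 TPM in Idh2R172K, against 4.24, 4.599, 6.07 and 4.76 TPM in WT. All 4 Idh2R172K libraries lay above all WT libraries, and the lowest, replicate 1, stood apart from the other 3. The difference was 0.85 ± 0.22 with a limma adjusted p of 0.0114, called under all 10 other settings and without any single library. Its partner Cox4i1, the ubiquitous form, had 507 ± 47.8 TPM in Idh2R172K and 567 ± 43.3 TPM in WT (SD, n = 4 each), so Cox4i2 remained a minor transcript. Cox6a2, the heart and muscle form of subunit 6a, had 19.05, 20.7, 21.2 and 17.2 TPM in Idh2R172K, against 23.9, 47.8, 27.2 and 40.2 TPM in WT. The groups did not overlap, yet the WT libraries spread widely, and the difference of -0.75 ± 0.32 was not called (limma adjusted p = 0.131). Of the 80 genes, 8 had all Idh2R172K libraries below all WT libraries, where 9.83% of all tested genes did, and 1 had them all above, where 13% did.

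**Figure D2:**
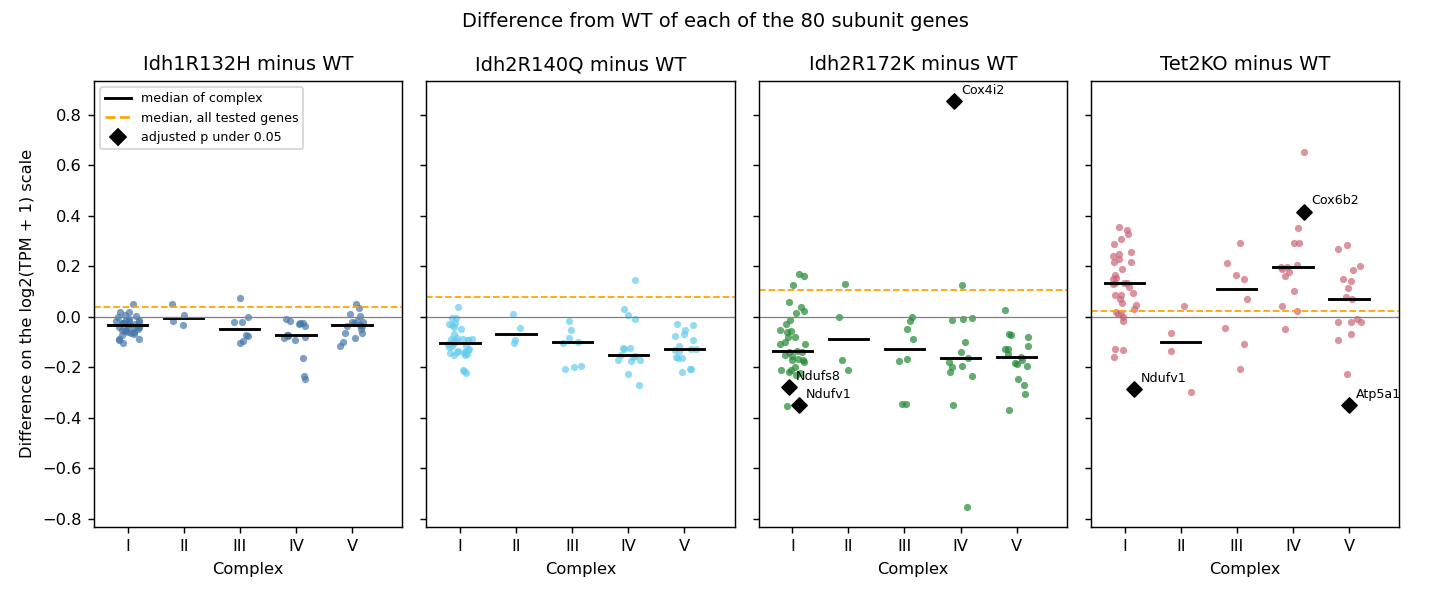
Difference from WT on the log2(TPM + 1) scale (y axis) of each of the 80 genes, by complex (x axis) and mutant group (panel); black bars are medians of a complex, diamonds are genes with a limma adjusted p under 0.05, and the dashed line is the median of all tested genes. In Idh2R172K the medians of all 5 complexes lie below 0 while the median of all tested genes lies at 0.11, and in Tet2KO, over all libraries, complex II alone has a median below 0.

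As a group, 69 of the 80 genes lay below WT in Idh2R172K, with a median difference of -0.14, while the median over all tested genes was 0.11. The median was -0.14 in complex I, -0.09 in complex II, -0.13 in complex III, -0.16 in complex IV and -0.16 in complex V. Among the roles, the 3 c-ring genes of complex V (Atp5g1, Atp5g2 and Atp5g3) had a median of -0.25, the 4 small membrane subunits of complex V -0.21, the 5 small subunits of complex III -0.17 and the 10 ubiquitous subunits of complex IV -0.17. All 10 of the last lay below 0. Without the libraries that stood apart the medians were -0.14, -0.07, -0.09, -0.13 and -0.17 in complexes I to V, and 9 of those 10 subunits lay below 0. The Rieske and core proteins of complex III had a median of -0.09 and Sdha a difference of 0.13 ± 0.15. The median stayed negative under every other setting and with any single library left out, between -0.24 and -0.08. By library number, whose meaning the labels do not give, it was -0.14 over numbers 1 to 3 and -0.15 for number 4, of which there is 1 library per group.

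The count of calls moved with the libraries that stood apart. Since the levels of the same 80 genes singled those libraries out, the SEs and p without them are not independent of that choice. Without the number 4 libraries and Tet2KO replicate 2, 19 of the 80 genes were called lower in Idh2R172K than in WT and 2 higher, where 10.6% of all tested genes were called lower and 22.2% higher. The genes called lower then included Ndufb6, an accessory subunit, with -0.36 ± 0.06 (limma adjusted p = 0.000415), Atp5g1, which encodes the c-ring protein, with -0.36 ± 0.06 (adjusted p = 0.000572), Uqcr11 with -0.37 ± 0.07 (adjusted p = 0.00122) and Uqcr10 with -0.35 ± 0.08 (adjusted p = 0.00419). Ndufb6 shares 257 exonic bases, 39.0% of its exon length, with Smim27 on the opposite strand, and the strand setting of the counting is not given. Sdha, the catalytic flavoprotein of complex II, was called higher in that subset with 0.18 ± 0.06 (adjusted p = 0.0328), and Sdhb, its iron-sulfur partner, lower with -0.19 ± 0.07 (adjusted p = 0.0434). Over all libraries Uqcr10 had 437, 418, 423 and 386 TPM in Idh2R172K, against 544, 544, 540.0 and 485 TPM in WT, with a difference of -0.34 ± 0.12 and a limma adjusted p of 0.0609. No Idh2R172K library reached the WT range, and Uqcr11 overlapped it through the number 4 library of WT, with 504, 529, 483 and 418 TPM in Idh2R172K, against 650.0, 643, 667 and 500.3 TPM in WT.

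Markers of other cells moved with Idh2R172K. The summed TPM of 6 early erythroid genes was 147 to 199.6 in Idh2R172K, against 718 to 887 in WT; all 6 were detected and 4 were called lower. The summed TPM of 6 basophil and mast cell genes was 570 to 728 in Idh2R172K, against 451 to 581 in WT, with 1 called higher and 3 lower. The 7 macrophage genes summed to 111 to 137 TPM in Idh2R172K, against 171 to 233 TPM in WT, with all 7 below 0 and 1 called lower. Of 3 tested T and NK genes 2 were called lower, with list sums that overlapped WT. Of 5 tested B lineage genes 2 were called higher and 1 lower. The B lineage list summed to 114, 39.3, 57.6 and 44.9 TPM in Idh2R172K, against 90.2 to 108 TPM in WT. Replicate 1 of Idh2R172K thus lay above the WT range and its other libraries below it. Whether these moves, or those of the immediate early genes given above, had a part in the subunit differences was not tested. In bulk RNA fewer cells of a type and less RNA per cell cannot be told apart.

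**Figure D3:**
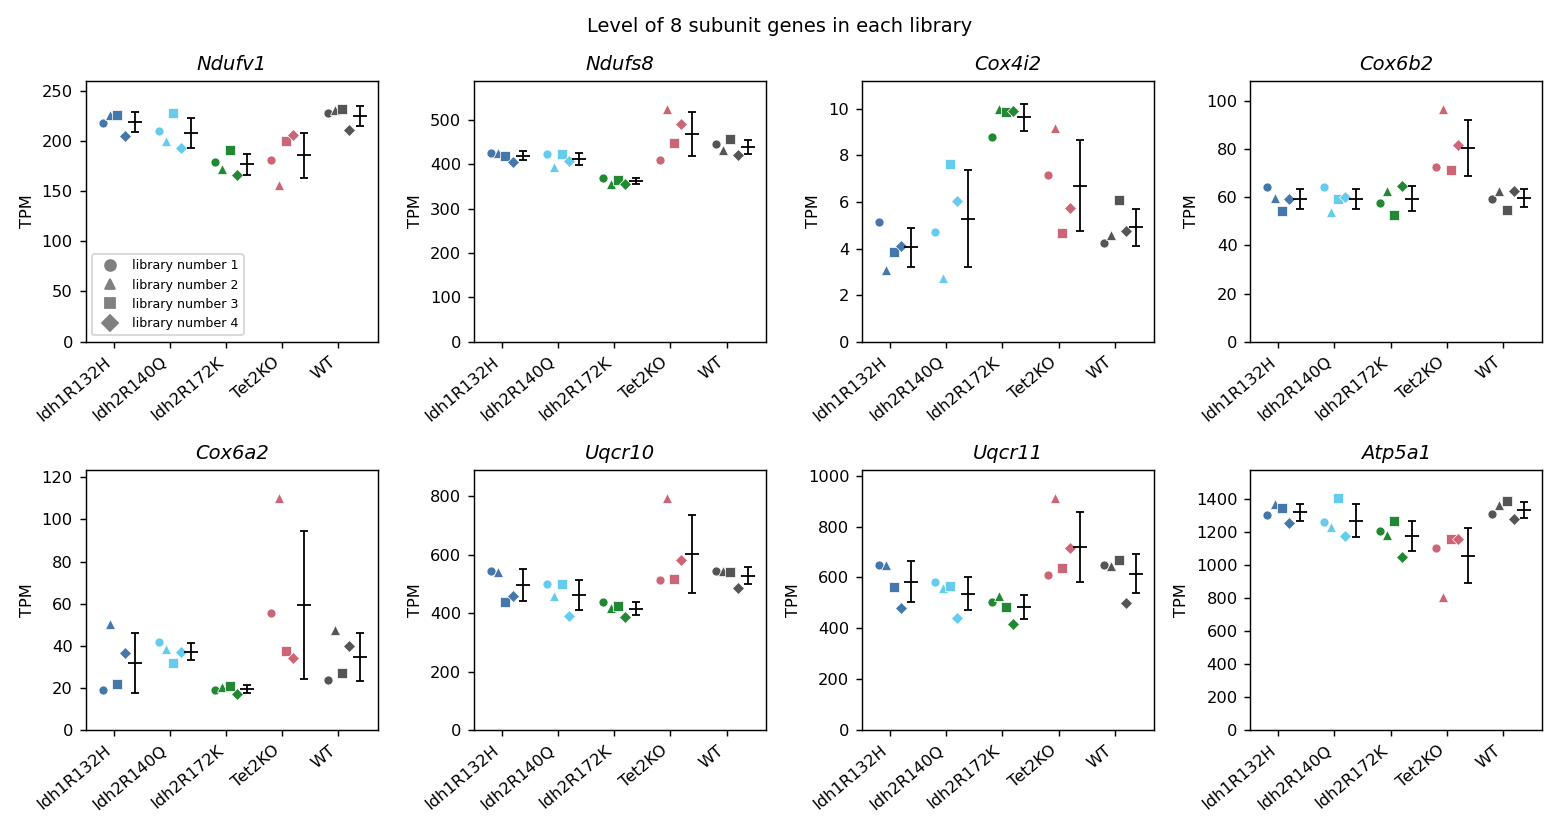
TPM (y axis, linear from 0) of 8 subunit genes in each of the 20 libraries, by genotype (x axis); point shapes give the library number and bars the mean with its SD (n = 4). Ndufv1 and Ndufs8 have all Idh2R172K libraries below WT, Cox4i2 has them above WT, Cox6b2 has all Tet2KO libraries above WT, and Cox6a2, Uqcr10, Uqcr11 and Atp5a1 have an extreme value in Tet2KO replicate 2.

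In Idh1R132H and Idh2R140Q no subunit gene was called against WT by limma, and 0 were called by limma-voom on rebuilt reads. None had an unadjusted limma p under 0.05, where 229 of 14176 tested genes did in Idh1R132H and 407 in Idh2R140Q. Of all tested genes 0.00705% were called higher and 0% lower in Idh1R132H, and 0% in either direction in Idh2R140Q. In Idh1R132H the 80 genes had a median difference of -0.03, with 13 above 0, and over all tested genes it was 0.04. The 3 smallest p belonged to Cox7a1, the muscle form of subunit 7a, with -0.25 ± 0.22, Cox4i2 with -0.24 ± 0.22 and Cox7a2l, which helps join complexes III and IV, with -0.09 ± 0.09. In Idh2R140Q the median was -0.11, with 5 of the 80 above 0, and over all tested genes it was 0.08. Its smallest p belonged to Atp5c1, the central stalk subunit, with -0.13 ± 0.07, Uqcr10 with -0.20 ± 0.12 and Cox7c, a small ubiquitous subunit, with -0.23 ± 0.14. All 17 genes of complex V and all 8 of complex III lay below 0 in Idh2R140Q, none of them past the test. Ndufs8 had 426, 426, 419 and 405 TPM in Idh1R132H and 423, 394, 423 and 407 TPM in Idh2R140Q, against 446, 432, 456 and 420.2 TPM in WT. In each mutant 2 of the 4 libraries fell within the WT range and 2 below it. By library number the median of Idh1R132H was -0.04 for numbers 1 to 3 and -0.02 for number 4, and that of Idh2R140Q was -0.10 and -0.15.

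In Tet2KO, Cox6b2 was higher than in WT, and Atp5a1 and Ndufv1 were lower. Of the 80 genes 1 was called higher and 2 lower, where 5.02% of all tested genes were called higher and 2.02% lower, so that the share called was below the background for the higher genes and near it for the lower. Cox6b2 (chr7:4751792-4753094, minus strand), the testis form of subunit 6b, had 72.4, 96.8, 71.6 and 81.7 TPM in Tet2KO, against 59.3, 62.6, 54.5 and 62.6 TPM in WT. All 4 Tet2KO libraries lay above all WT libraries, and also above every library of the 3 Idh groups. The difference was 0.42 ± 0.10 with a limma adjusted p of 0.0225; it was 0.35 ± 0.09 without the libraries that stood apart (adjusted p = 0.0114). With the length trend removed the adjusted p was 0.121, under median-of-ratios scaling 0.0699 and with the 2 groups alone 0.157. Without single libraries it ran from 0.0207 to 0.081, and the call was lost without Tet2KO replicate 4 (0.0595), WT replicate 1 (0.0501) or WT replicate 3 (0.081).

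Atp5a1 (chromosome 18, plus strand), the alpha subunit of the catalytic head, had 1104, 809, 1156 and 1161 TPM in Tet2KO, against 1308, 1361, 1390.3 and 1279 TPM in WT. The groups did not overlap, and replicate 2 was far below the other 3 Tet2KO libraries. The difference was -0.35 ± 0.10 with a limma adjusted p of 0.0366, and -0.25 ± 0.05 without the libraries that stood apart (adjusted p = 0.0039). Without Tet2KO replicate 2 alone the adjusted p was 0.0511, and without WT replicates 1, 2 or 3 it was 0.0713, 0.0679 or 0.109; the call was also lost with no filter (0.0705), median-of-ratios scaling (0.0645), the 2 groups alone (0.182) and limma-voom (0.0922). It shares 129 exonic bases with Haus1 on the opposite strand, and the strand setting of the counting is not given. Ndufv1 had 181, 156, 200.1 and 206 TPM in Tet2KO, against 228, 231, 232 and 211 TPM in WT, with no overlap. The difference was -0.28 ± 0.08 with a limma adjusted p of 0.0473, which ran from 0.0379 to 0.127 without single libraries; the call was lost in 5 of those 8 fits and under 7 of the 10 other settings. Of the 80 genes, 8 had all Tet2KO libraries above all WT libraries, where 9.11% of all tested genes did, and 4 had them all below, where 4.51% did.

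Of the 80 genes, 60 lay above WT in Tet2KO, with a median difference of 0.13, while the median over all tested genes was 0.02. By complex the median was 0.13 in complex I, -0.10 in complex II, 0.11 in complex III, 0.20 in complex IV and 0.07 in complex V, and no difference between complexes or roles was tested. Without Tet2KO replicate 2 these medians were 0.03, -0.06, 0.02, 0.09 and -0.04, and without all 5 libraries that stood apart they were -0.00, -0.07, -0.03, 0.02 and -0.11. In complex I, 28 of the 29 accessory subunits lay above WT with a median of 0.14, and 14 of them, with a median of -0.01, without those 5 libraries. In complex III all 5 small subunits lay above 0 with a median of 0.17, against 1 of 5 and -0.02 without them. In complex V the 5 head subunits had a median of -0.07, with 4 below 0, and of -0.13, with all 5 below, without them. Apart from Cox6b2, Atp5a1 and Ndufv1, no member passed the test over all libraries.

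The median of Tet2KO changed when replicate 2 or the length trend was taken out. Without that library it was 0.03, without the 5 libraries that stood apart it was -0.04, and with each library's trend on gene length removed it was -0.06. Within numbers 1 to 3 it was 0.03 and for number 4 it was 0.29, where 1 Tet2KO library was set against the low number 4 library of WT. The subunit genes are short, with a median exon length of 1578 bases against 3694 bases over all tested genes. Across the 80 genes the difference from WT was lower in genes of longer exon length in Tet2KO (Spearman's rho -0.49), and over all tested genes with a length rho was -0.40; without the libraries that stood apart the values were -0.16 and -0.18. In Idh2R172K rho was 0.12 across the 80 genes, in Idh2R140Q 0.37 and in Idh1R132H 0.50. These describe genes that share libraries and are not tests. Another set of short abundant mRNAs, 77 cytosolic ribosomal protein genes, had a median of 0.19 in Tet2KO with 76 above 0. Their median was -0.05 in Idh2R172K, -0.08 in Idh1R132H and -0.11 in Idh2R140Q. The whole list summed to 58435, 85869, 59220 and 64184 TPM in Tet2KO, against 61422, 65004, 57536 and 49740 TPM in WT. The highest of these is Tet2KO replicate 2 and the lowest the number 4 library of WT, both among those that stood apart.

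**Figure D4:**
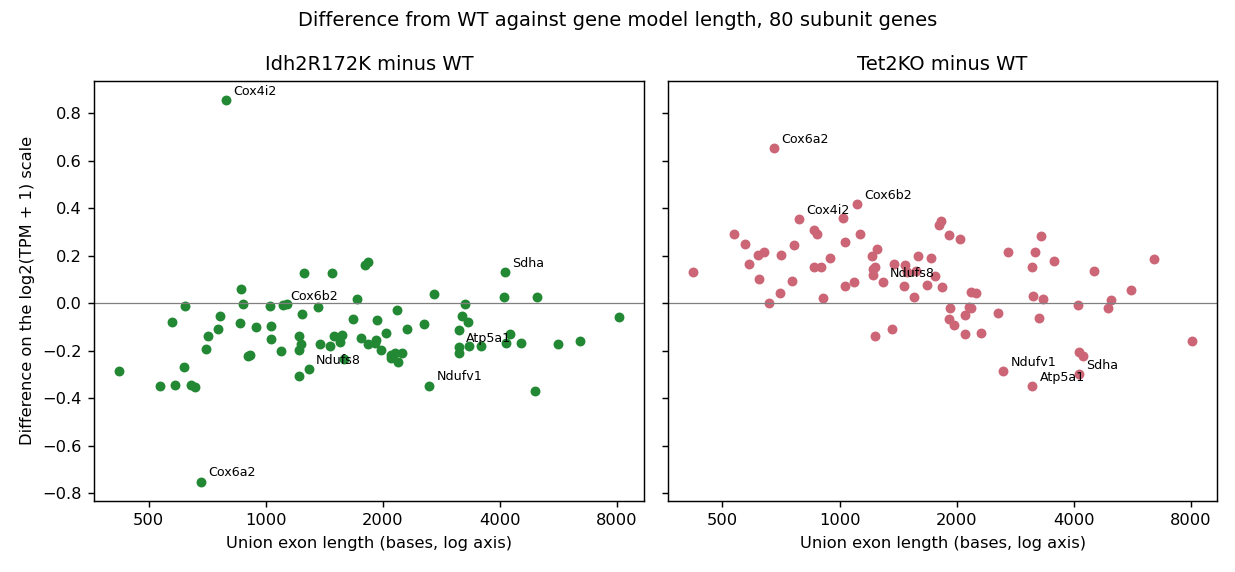
Difference from WT on the log2(TPM + 1) scale (y axis) of the 80 genes against union exon length in bases (x axis, log scale) in Idh2R172K (left) and Tet2KO (right). In Tet2KO the genes of short exon length lie mostly above 0 and the long ones nearer to or below it (rho -0.49), and in Idh2R172K the points lie below 0 at most lengths (rho 0.12).

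Without the libraries that stood apart, 7 subunit genes were called lower and 2 higher in Tet2KO, where 3.36% of all tested genes were called lower and 28.5% higher. Those lower were Atp5a1, Cox5a, an essential ubiquitous subunit, with -0.26 ± 0.07 (limma adjusted p = 0.00855), Ndufb6, Atp5g1, Ndufv1, Ndufb11 and Atp5o; those higher were Cox6b2 and Atp5s, with 0.44 ± 0.08 (adjusted p = 0.00194). Markers of other cells moved with Tet2KO as well. The summed TPM of 7 red cell genes was 94.1 to 133 in Tet2KO, against 48.6 to 79.2 in WT, with 5 called higher and 1 lower, and that of 6 early erythroid genes was 399 to 579.6 in Tet2KO, against 718 to 887 in WT, with 3 called lower. The 7 macrophage genes summed to 233 to 253 TPM in Tet2KO, against 171 to 233 TPM in WT, with 2 called higher. The part of these cells, of the immediate early genes and of library quality in the subunit differences was not tested.

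In Tet2KO 16 of the 80 were called higher and 1 lower than in Idh2R172K, where 11.9% of all tested genes were called higher and 14.9% lower; 69 lay above 0, with a median of 0.24, and over all tested genes the median was -0.06. The median of the 80 was 0.09 without the libraries that stood apart, with 61 above 0, and 0.11 with the length trend removed. Those called higher lay in every complex: Ndufs8, Ndufv3, Ndufs5, Ndufa5 and Ndufb10 in complex I, Sdhb in complex II, Uqcr10 and Uqcr11 in complex III, Cox6a2, Cox6b2, Cox5b, Cox7b, Cox7a1 and Cox6b1 in complex IV, and Atp5mpl and Atp5j2 in complex V. Cox6a2 had 55.8, 110.4, 37.4 and 34.3 TPM in Tet2KO, against 19.05, 20.7, 21.2 and 17.2 TPM in Idh2R172K. The groups did not overlap, though the Tet2KO libraries spread over a wide range, and the difference was 1.40 ± 0.32 (limma adjusted p = 0.00483); its transcript shares 70 exonic bases with Itgad on the other strand. Uqcr11 had 611, 913, 636 and 715 TPM in Tet2KO, against 504, 529, 483 and 418 TPM in Idh2R172K, a difference of 0.56 ± 0.14 (adjusted p = 0.00726). Ndufs8 had 410.3, 525, 447 and 489.7 TPM in Tet2KO, against 369.9, 355, 364 and 356 TPM in Idh2R172K, a difference of 0.37 ± 0.07 (adjusted p = 0.000699). All 3 separated the groups completely and stayed called under all 10 other settings and without any single library.

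Sdha ran the other way, with 460.1, 246, 500.2 and 454 TPM in Tet2KO, against 535, 541, 560.4 and 524 TPM in Idh2R172K, a difference of -0.43 ± 0.15 (limma adjusted p = 0.0416). Again the groups did not overlap, and replicate 2 of Tet2KO was lowest. The call was lost without any 1 of the 4 Idh2R172K libraries, with adjusted p of 0.0665 to 0.0822, and was kept without the libraries that stood apart, with -0.21 ± 0.06 (adjusted p = 0.0154). In that subset 13 of the 80 were called higher and 2 lower, where 23.5% of all tested genes were called higher and 11.7% lower. Cox6b2, Uqcr10 and Cox5b also stayed called without any single library, and each of the other 11 calls, among them Cox6b1, Ndufb10 and Atp5mpl, was lost without at least 1 library.

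Against the other Idh groups, Tet2KO had 4 subunit genes called higher and 1 lower than Idh1R132H, where 6.82% of all tested genes were called higher and 6.67% lower. They were Cox6b2, with 0.43 ± 0.10 (limma adjusted p = 0.0135), Ndufa7, an accessory subunit, with 0.41 ± 0.12, Ndufv3 with 0.27 ± 0.08 and Ndufs4, an accessory subunit whose loss causes Leigh-like disease, with 0.26 ± 0.08, and lower Atp5a1 with -0.33 ± 0.10. Against Idh2R140Q, 7 were called higher and 0 lower, where 4.05% of all tested genes were called higher and 5.49% lower: Cox6b2, Ndufa7, Ndufv3, Cox7c, Ndufs4, Ndufs7 and Atp5j2. None of these calls, Cox6b2 included, held with every single library left out in turn. The 2 comparisons share the Tet2KO libraries.

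Among the Idh mutants, Idh2R172K differed from Idh1R132H in Cox4i2, higher with 1.09 ± 0.22 (limma adjusted p = 0.00186), and in Ndufv1, lower with -0.31 ± 0.08 (adjusted p = 0.0188), and Ndufs8, lower with -0.21 ± 0.07 (adjusted p = 0.0373). Of all tested genes 6.21% were called higher and 7.32% lower. The Ndufv1 call was lost without Idh1R132H replicate 2 or 3 or Idh2R172K replicate 2 or 4, with adjusted p up to 0.0631, and the Ndufs8 call was kept without Idh1R132H replicate 4 alone. Cox4i2 had 5.14, 3.08, 3.86 and 4.12 TPM in Idh1R132H, all under the 8.78 to 10.0 TPM of Idh2R172K. Here library numbers pair the samples. The number as a block was fitted over all 20 libraries, also those of groups that the numbers do not pair. With this block 2 were called higher and 4 lower, adding Cox7a2l higher and Atp5g1 and Sdhb lower. Of all tested genes 9.83% were then called higher and 9.66% lower. Against Idh2R140Q, Idh2R172K differed in Cox4i2 alone, with 0.82 ± 0.22 (adjusted p = 0.0186), where 3.76% of all tested genes were called higher and 6.74% lower. Its level was 4.71, 2.75, 7.65 and 6.04 TPM in Idh2R140Q. That call was lost without Idh2R140Q replicate 1 (adjusted p = 0.0502) or 2 (0.0697) and with the 2 groups alone (0.0686). With the number as a block, 4 were called, Cox4i2 and Ndufa7 higher and Cox6a2 and Ndufv1 lower, with 5.76% of all tested genes called higher and 8.89% lower. Between Idh2R140Q and Idh1R132H none of the 80 was called by limma or by limma-voom. By limma 0% of all tested genes were called higher and 0.00705% lower. The count at an unadjusted limma p under 0.05 was 0 of the 80, where it was 274 of 14176 tested genes. The F test over the 5 groups called 10 of the 80, where it called 23.1% of all tested genes: Ndufs8, Cox4i2, Cox6b2, Ndufv1, Ndufa7, Uqcr10, Cox6a2, Uqcr11, Ndufv3 and Atp5a1.

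**Figure D5:**
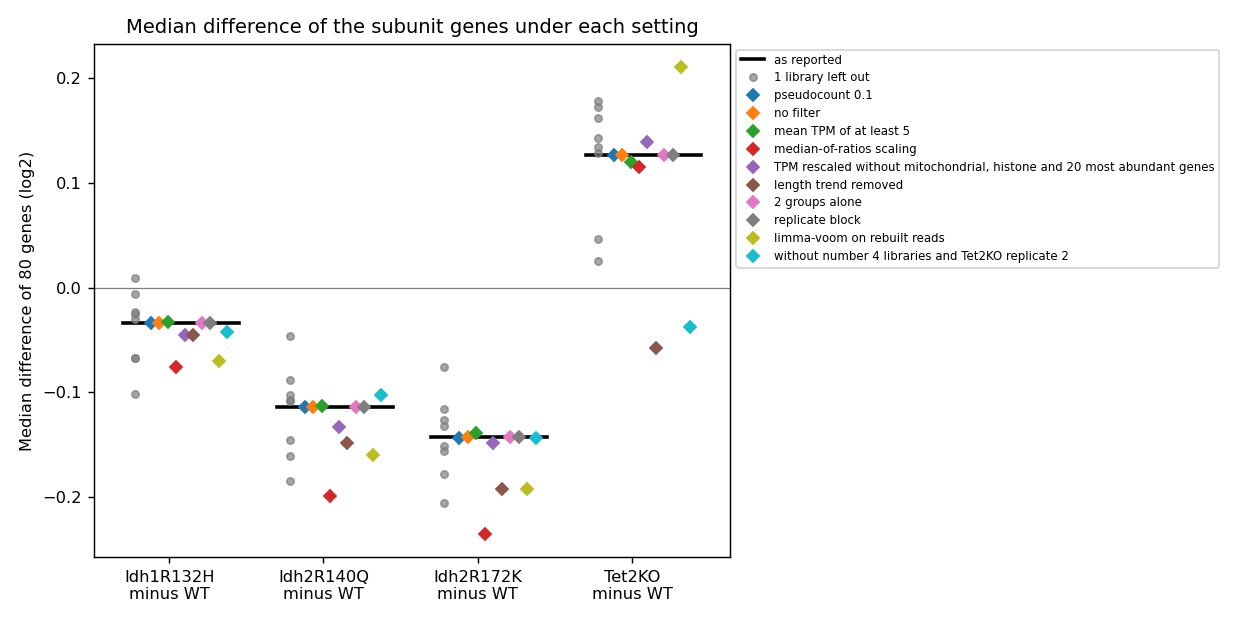
Median log2 difference from WT of the 80 genes (y axis) in each mutant group (x axis); the black bar is the value as reported, grey circles leave out 1 library each and coloured diamonds are the other settings. The Idh2R172K median stays between -0.24 and -0.08, and the Tet2KO median drops below 0 with the length trend removed and without the libraries that stood apart.

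Several complex IV subunits exist as a ubiquitous and a tissue form. In each family the ubiquitous form was far more abundant: over the 20 libraries Cox6a1 had 898 TPM against 36.6 TPM for Cox6a2, Cox6b1 1138 TPM against 63.7 TPM for Cox6b2, and Cox7a2 404 TPM against 3.48 TPM for Cox7a1. In Tet2KO the 4 tissue forms Cox4i2, Cox6a2, Cox6b2 and Cox7a1 all lay above WT with a median of 0.39, of which Cox6b2 alone was called; without the libraries that stood apart all 4 still did, with a median of 0.31. In Idh2R172K they were split, with Cox4i2 higher and a median of -0.18, or -0.02 without those libraries. Cox6b1 had 1344 ± 253 TPM in Tet2KO and 1155 ± 102 TPM in WT, and Cox6b2 80.6 ± 11.7 TPM in Tet2KO and 59.8 ± 3.81 TPM in WT (SD, n = 4 each). The c-ring is encoded by 3 genes for the same protein; Atp5g3 had 449 TPM, Atp5g1 80.9 TPM and Atp5g2 57.0 TPM. Atp5g1 had 73.8, 70.3, 71.4 and 53.6 TPM in Idh2R172K, against 92.1, 94.4, 91.2 and 70.8 TPM in WT, and its difference of -0.37 was not called over all libraries.

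Lists of genes around the subunits held few calls. Of 51 assembly factors 2 were called lower and 0 higher in Idh2R172K, a share below the 7.33% and 8.03% of all tested genes: Ecsit, a complex I assembly factor, with -0.45 ± 0.11 (limma adjusted p = 0.00683) and Cmc2, a complex IV factor, with -0.41 ± 0.12 (adjusted p = 0.0292). In Tet2KO 3 were called higher and 0 lower, near the 5.02% of all tested genes called higher, namely Uqcc3, Cox14 and Coa4, factors of complexes III and IV, with 0.33 to 0.36. Their medians were 0.02 in Idh2R172K and 0.05 in Tet2KO. Of 77 mitochondrial ribosomal protein genes 7 were called lower and 0 higher in Idh2R172K, near the 7.33% of all tested genes called lower, with a median of -0.07; Mrps36, now known as a 2-oxoglutarate dehydrogenase subunit, had a difference of -0.55 (adjusted p = 0.00573) and Mrpl41, of the large subunit, one of -0.37 (adjusted p = 0.00977). In Tet2KO none of the 77 was called, with a median of 0.09. Cycs, the electron carrier cytochrome c, had 45.3, 40.0, 45.7 and 33.2 TPM in Idh2R172K, against 63.1, 59.2, 63.6 and 53.8 TPM in WT. The groups did not overlap, and the difference was -0.54 ± 0.12 (adjusted p = 0.00524). Cyc1, a complex III subunit outside the symbol rule and named after its values were seen, had 445 ± 29.4 TPM in Idh2R172K and 505 ± 30.1 TPM in WT (SD, n = 4 each; adjusted p = 0.0658).

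Of the mitochondrially encoded partners 1 was called higher in Idh2R172K and none in Tet2KO. Of 13 such genes 8 were tested, with a median difference of 0.04 and 5 above 0, and mt-Co1, the catalytic subunit of complex IV, was called higher, with 7312, 7082, 6692 and 5330.4 TPM in Idh2R172K, against 3799, 4080, 3322 and 2644 TPM in WT. Every Idh2R172K library lay above every WT library, and the difference was 0.94 ± 0.15 (limma adjusted p = 0.000194). The sum of the nuclear genes divided by the sum of the mitochondrially encoded ones was 1.39, 1.37, 1.47 and 1.57 in Idh2R172K, against 1.88, 1.74, 1.92 and 2.32 in WT. The groups did not overlap, and the separation rested on mt-Co1: with it left out, a choice made after the data were seen, the ratio was 2.29, 2.25, 2.39 and 2.62 in Idh2R172K, against 2.54, 2.32, 2.50 and 3.14 in WT, which overlap. This ratio sets 80 genes against 13, of which 5 stood under 1 TPM in every library. In Tet2KO all 8 tested mitochondrially encoded genes lay above WT, with a median of 0.31 and none called. The 13 summed to 14007, 17891, 14997 and 16937 TPM in Tet2KO, against 14604, 16286, 14321 and 10075 TPM in WT. Of 16 regulators of mitochondrial biogenesis none was called in Idh2R172K. In Tet2KO 2 were called lower: Lrpprc, which stabilises mitochondrial mRNA, with -0.81 ± 0.20 (adjusted p = 0.0236), and Pprc1, a PGC-1-related coactivator, with -0.73 ± 0.21 (adjusted p = 0.0486). Both had their lowest value in Tet2KO replicate 2, at 14.2 and 22.4 TPM, against 26.6 to 33.8 and 47.1 to 61.8 TPM in the other 3. Nrf1, Gabpa, Esrra, Tfam, Myc and Ppargc1b, factors known to act on respiratory genes or mitochondrial DNA, were not called against WT in any mutant group, and Ppargc1a stood below the level tested.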

How the data were processed

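RNA was sequenced from 20 pools of sorted LSK cells, 4 per group. The deposited table gives TPM per gene for 46078 Ensembl IDs and sums to 1000000 in each library. Per the submitters' processing notes, the authors used Trim Galore, STAR with the mm10 genome, and featureCounts; versions, annotation release and strand setting are not given in the sources used here. Multiplying TPM by union exon length (GENCODE M21) gave whole reads within 0.1 for 90.0 to 91.0% of low values and the depths given above; of the 46078 IDs 849 were not in that annotation. Gene-level TPM moves with the counts of the most abundant RNAs and with length bias, which the alternatives address.

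Symbols and positions were taken from GENCODE M21. The 14176 genes whose mean reached 1 TPM were tested on log2(TPM + 1) with limma 3.58.1 in R 4.3.3, in 1 fit of 5 groups without covariates and with a mean-variance trend; all 10 pairwise comparisons and an F test were Benjamini-Hochberg adjusted over all tested genes, and called at an adjusted p under 0.05. Fold changes on this scale understate those of low genes. SDs are between libraries and SEs are from limma. The script was tested on simulated data. Alternatives were a pseudocount of 0.1, no filter or a minimum mean of 5 TPM, scaling by median of ratios, rescaling with histone genes, mitochondrial genes and the 20 most abundant ones left out, removal of each library's length trend, the 2 groups alone, the library number as a block, limma-voom on rebuilt reads, and leaving out the number 4 libraries of WT and the Idh groups with Tet2KO replicate 2, or each library in turn.

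The genes named were every subunit gene called in any comparison or the F test, per complex the 2 highest, 2 lowest and 3 with the smallest F p, the 3 smallest p of each comparison without a call, the tissue isoform families, and in other lists up to 4 called genes per comparison, with fixed regulators, Cycs and Idh2. Genes named as called only in an alternative, and Cyc1, were chosen after their values were seen. The members, lists and alternatives were chosen with earlier results of these data known.

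Library numbers recur across groups. They were taken to pair samples where all 4 same-numbered pairs had correlated deviations from their group means (r over 0.1). This held between Idh1R132H and WT (0.176 to 0.489), Idh2R140Q and Idh1R132H (0.147 to 0.538), Idh2R172K and Idh1R132H (0.167 to 0.478) and Idh2R172K and Idh2R140Q (0.213 to 0.534), and not elsewhere. The pairing comes from these correlations, since the labels do not say what a number marks. No library pair was identical; the highest correlation between libraries was 0.98. One marker-list result is not reported here.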

Additional observations from a re-analysis of the deposited data

Results flagged for a closer look

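Each value below lies far from the other 3 libraries of its group; 150 group tests were made, and chance gives about 1 such value in 20. WT replicate 4 was the lowest WT library in 8 of the 11. Its summed TPM over the 80 subunit genes was 23321, against 27438 to 28264 in the other WT libraries, and over complex III it was 2566, against 2979 to 3014. In the same library Uqcr11 had 500.3 TPM (643 to 667 in the others), Uqcr10 485 TPM (540.0 to 544) and Ndufa5 121 TPM (151.9 to 158). Cox6b1 had 1002 TPM there (1197 to 1212), Atp5mpl 657 TPM (867 to 898.5) and Atp5j2 88.6 TPM (102 to 103). Cox7b had 235 TPM in Idh2R172K replicate 4, against 271 to 279 in the other 3. Cox4i2 had 8.78 TPM in Idh2R172K replicate 1, against 9.89 to 10.0. Atp5a1 had 809 TPM in Tet2KO replicate 2, against 1104 to 1161.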

How the results depend on the processing

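The 3 comparisons without a call (Idh1R132H and Idh2R140Q against WT and against each other) stayed at 0 under all 10 other settings and without any single library. Counts of calls among the 80 genes moved by over 1.5 times as follows. For Idh2R172K against WT (3 calls), 7 were called with the length trend removed, 5 with the 2 groups alone, 10 with the replicate block and 21 without the libraries that stood apart. For Tet2KO against WT (3), 1 was called with no filter, 1 with median-of-ratios scaling, 0 with the 2 groups alone, 13 with the block and 9 without those libraries. For Idh2R172K against Idh1R132H (3) the count was 1 with median-of-ratios scaling, 6 with the block and 11 without those libraries; against Idh2R140Q (1) it was 2 with the length trend removed, 4 with the block and 5 without them. For Tet2KO against Idh1R132H (5) it was 2 with no filter, 3 with median-of-ratios scaling, 2 rescaled, 0 with the 2 groups alone, 22 with the block and 10 without them. For Tet2KO against Idh2R140Q (7) it was 3 with no filter, 2 with median-of-ratios scaling, 4 rescaled, 0 with the length trend removed, 0 with the 2 groups alone and 30 with the block. For Tet2KO against Idh2R172K (17) it was 10 with no filter, 10 with median-of-ratios scaling, 8 with the length trend removed, 3 with the 2 groups alone and 40 with the block. The F test (10) called 6 with no filter, 3 with median-of-ratios scaling, 5 rescaled, 6 with the length trend removed, 32 with the block and 17 without them. The 2 groups alone have fewer samples; the causes of the other shifts were not tested.

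Medians of the 80 genes changed sign in Tet2KO against WT with the length trend removed (-0.058) and without the libraries that stood apart (-0.038), and against Idh1R132H with the length trend removed (-0.009); without those libraries the median was 0.024 against Idh1R132H, 0.068 against Idh2R140Q and 0.088 against Idh2R172K, for which it was 0.108 with the length trend removed. The medians and sums by complex and role without these libraries, and the ratio without mt-Co1, were chosen after seeing the data. Without single libraries the medians ran as follows: Idh1R132H against WT -0.101 to 0.009, Idh2R140Q against WT -0.184 to -0.046, Idh2R172K against WT -0.205 to -0.076 and Tet2KO against WT 0.025 to 0.178. They were -0.134 to -0.009 for Idh2R140Q against Idh1R132H, -0.152 to -0.033 for Idh2R172K against Idh1R132H and -0.088 to 0.032 against Idh2R140Q. For Tet2KO they were 0.068 to 0.216 against Idh1R132H, 0.136 to 0.281 against Idh2R140Q and 0.149 to 0.294 against Idh2R172K. The counts ran from 3 to 6 for Idh2R172K and from 0 to 4 for Tet2KO against WT, from 1 to 3 and 0 to 1 for Idh2R172K against Idh1R132H and Idh2R140Q, from 0 to 12, 0 to 18 and 8 to 27 for Tet2KO against Idh1R132H, Idh2R140Q and Idh2R172K, and from 5 to 12 for the F test.

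Of 860 results for single named genes, 613 kept their direction and side of the threshold, 247 kept the direction but were no longer called, and none changed sign. The 860 include genes of the comparisons without a call, which had no call to lose, so the share of calls lost is larger than these counts show. By the rule of r over 0.1 in all 4 pairs, numbers did not pair Idh2R172K or Idh2R140Q with WT, or Tet2KO with any group. For Idh2R140Q against WT the same-number correlations ran from 0.097 to 0.45, just short of the rule. They ran from -0.023 to 0.404 for Idh2R172K against WT. Of the 8 libraries, 5 and 4 correlated best with their own number in these 2 comparisons. With Tet2KO the correlations ran from -0.197 to 0.114, and 0 to 2 of the 8 libraries of a comparison correlated best with their own number. Depth was similar in all libraries; TPM keeps no absolute RNA amount, and genes near 1 TPM such as Cox7a1 are the least precise.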

Other observations

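Ndufs8 and Ndufv1, the complex I genes called lower in Idh2R172K, lie 94610 bases apart on chromosome 19. This was noticed after their values were seen, and the values of the genes around them are given with no test of the region. From 100000 bases before the first to 100000 bases after the second, 13 genes were tested. The window was drawn around Ndufs8 and Ndufv1 because they were called lower, so they are left out of the count: of the other 11 genes 5 were called lower in Idh2R172K than in WT by limma and 0 higher, where 7.33% of all tested genes were called lower. They were Gstp3, a glutathione transferase, with a log2 difference of -2.07 (adjusted p = 2.91e-06), Acy3, an aminoacylase, with -1.47 (6.46e-07), Cdk2ap2 with -0.65 (3.05e-06), Unc93b1, which carries Toll-like receptors to endosomes, with -0.46 (0.0127), and Gstp1, another glutathione transferase, with -0.44 (0.00856).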
